A study of Mus musculus with 6 samples.

Results

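The genes described here are 35 genes of glycolysis and of the response to low oxygen, measured in single cells of mouse melanoma tumors. They were taken as a list of symbols, drawn up with earlier results of these data known. They cover glucose entry and phosphorylation (3 genes), the upper steps of glycolysis (7), the lower steps (6), the handling of pyruvate and lactate (6), oxygen sensing (3), and other genes known to respond to hypoxia (10). The deposited table had 36 rows with these symbols among 25215, because Aldoa was listed in a second row (ENSMUSG00000114515). That row was at 0 in each of the 507 retained cells, which allows a share of cells of up to 0.592%, and it did not pass the filter on genes. The other 35 rows, 1 for each symbol, passed the filter and are among the 11264 genes tested.

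Glycolysis splits glucose into pyruvate in the cytosol and yields ATP without oxygen. Lactate dehydrogenase then turns pyruvate into lactate, which leaves the cell through monocarboxylate transporters, and pyruvate dehydrogenase kinases restrain the entry of pyruvate into the mitochondrial cycle. When oxygen is low, the prolyl hydroxylases that mark the HIF alpha subunits for destruction slow down, and the HIF complex binds short DNA motifs and activates its targets. Most enzymes of glycolysis, the glucose transporter Slc2a1, Car9, Vegfa, and Bnip3 are textbook targets, and solid tumors, melanoma included, are known for poorly perfused regions where this program is active.

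The tumors came from 6 C57BL/6 mice, with 2 mice in each of 3 conditions, and each mouse received 50000 cells under the skin on day 0 and was sampled on day 15. B16 denotes untreated tumors of the B16-F10 melanoma line, B16PD1 denotes tumors of the same line in mice that had anti-PD1 on day 5, day 8, and day 11 at 200 μg each, and R499 denotes untreated tumors of a line grown out of a B16 tumor that relapsed after radiation and anti-CTLA4. Tumor cells were enriched by sorting CD45-negative cells, and full-length Smart-seq libraries were prepared on the ICELL8 system. R499 is a single derived line, so a difference between R499 and B16 cannot be told apart from a difference between these 2 lines in general, and neither the age of the mice nor whether tumors of both flanks were pooled is given in the sources used here. Values are TPM, a measure of transcript abundance that adjusts for transcript length and sums to the same total in every cell, so levels can be compared between genes but a gene can only rise at the expense of others.

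The 602 deposited cells were named by 602 well positions, and 0 positions were shared between tumors. Between 75 and 91 cells per tumor were retained, with medians of 3141 (R499015) to 3839 (B16PD1002) genes detected in a cell. Read depth is unknown. Melanocyte markers were detected in a median of 99.5% of cells. Of 16 immune markers 4 were at 0 in every cell and the most frequent, Fcer1g, was in 5.52% of cells, with summed levels of 204 TPM in B16007 and 234 TPM in B16PD1002 against 7.26 to 39.3 TPM in the other 4 tumors. Fibroblast markers reached at most 1.58% and endothelial markers at most 2.56% of cells, and all 4 keratinocyte and all 5 erythroid markers were at 0.

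The genes of the central pathway were among the most abundant transcripts of these cells. Gapdh, which oxidizes glyceraldehyde 3-phosphate and is used as a reference gene in many assays, had a mean of 13512 TPM over the 507 cells and was the gene with rank 3 by mean TPM. Aldolase A (Aldoa) followed at 6655 TPM, lactate dehydrogenase A (Ldha) at 5103 TPM, enolase (Eno1) at 4217 TPM, and phosphoglycerate kinase (Pgk1) at 2564 TPM. These 5 genes were detected in every retained cell. The 13 enzymes of the upper and lower steps together took 3.28% of a cell's TPM on average, with 5% of cells under 1.70% and 5% above 5.12%, and all 35 genes took 4.16%.

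On the log2(TPM + 1) scale, the 5 most abundant genes had SDs between tumor means of 0.07 (Ldha) to 0.20 (Aldoa). Mean TPM of Gapdh was 14772 and 11498 in B16, 13522 and 12971 in B16PD1, against 14448 and 13904 in R499. For Aldoa the values were 6874 and 5909 in B16, 6314 and 5713 in B16PD1, against 8007 and 7283 in R499. Both R499 tumors thus lay above the other 4 for Aldoa, whereas for Gapdh the conditions overlapped. Ldha stood at 5354 and 4966 TPM in B16, 5233 and 4764 TPM in B16PD1, against 5053 and 5254 TPM in R499. Eno1 stood at 4205 and 4146 TPM in B16, 4529 and 3614 TPM in B16PD1, against 4394 and 4471 TPM in R499. Pgk1 stood at 2778 and 2341 TPM in B16, 2537 and 2578 TPM in B16PD1, against 2395 and 2757 TPM in R499. The conditions overlapped for Ldha, Eno1, and Pgk1.

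At the entry to the pathway, the glucose transporter Slc2a1 was detected in 80.5% of cells at a mean of 124 TPM, and hexokinase 2 (Hk2), which traps glucose as glucose 6-phosphate, in 79.5% at 131 TPM. The broadly expressed hexokinase Hk1 was in only 28.2% of cells at 11.2 TPM. Among the upper steps, glucose phosphate isomerase (Gpi1) and triose phosphate isomerase (Tpi1) were each in 99.8% of cells, at 1029 and 1731 TPM. The phosphofructokinases Pfkp and Pfkl, which commit the sugar to glycolysis, were in 94.3% and 85.2% of cells at 246 and 124 TPM, and aldolase C (Aldoc) was in 82.1% at 247 TPM. Pfkfb3, whose product makes an activator of phosphofructokinase, was sparse, in 24.1% of cells at 9.47 TPM. Among the lower steps, phosphoglycerate mutase (Pgam1) was in 99.6% and pyruvate kinase (Pkm) in 100% of cells, at 1282 and 1186 TPM, whereas the neuronal enolase Eno2 was in 16.6% at 14.6 TPM.

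Downstream of pyruvate, lactate dehydrogenase B (Ldhb) was in 96.8% of cells at 758 TPM. The lactate exporter Slc16a3 was in 50.9% at 46.9 TPM and the related transporter Slc16a1 in 48.5% at 15.3 TPM. The pyruvate dehydrogenase kinases Pdk3 and Pdk1 were in 77.1% and 63.9%, at 92.1 and 55.9 TPM. Thus each step from glucose to secreted lactate had at least 1 gene detected in more than 50% of the cells.

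Among the oxygen sensing genes, the transcript of the HIF subunit Hif1a was in 76.7% of cells at 56.3 TPM. The prolyl hydroxylases Egln1 and Egln3 were in 30.8% and 8.88%, at 5.96 and 2.53 TPM. Of the other hypoxia response genes, Bnip3, a mitophagy receptor, was in 97.6% of cells at 1014 TPM, and its relative Bnip3l in 89.5% at 473 TPM. Car9, the membrane carbonic anhydrase that is used as a tissue marker of hypoxia, was in 458 of the 507 cells, which is 90.3% (95% Wilson interval 87.5 to 92.6%), at 461 TPM. The collagen prolyl hydroxylases P4ha1 and P4ha2 were in 78.9% and 42.2% (57.8 and 43.3 TPM), the histone demethylase Kdm3a in 76.1% (104 TPM), the stress-responsive gene Ndrg1 in 54.6% (105 TPM), the angiogenic factor Vegfa in 45.4% (25.6 TPM), the ankyrin repeat gene Ankrd37 in 25.2% (74.7 TPM), and the mTOR inhibitor Ddit4 in 7.30% (1.44 TPM). A cell had a median of 7 of the 13 oxygen sensing and other hypoxia response genes detected in 5 of the tumors and 8 in B16007. The lowest number in a cell was 1 and the highest 13. Ddit4 was listed at 0 in all 86 cells of B16008, which allows a share of up to 3.49%, and was in 6.17 to 10.5% of cells in the other 5 tumors.

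**Figure D1:**
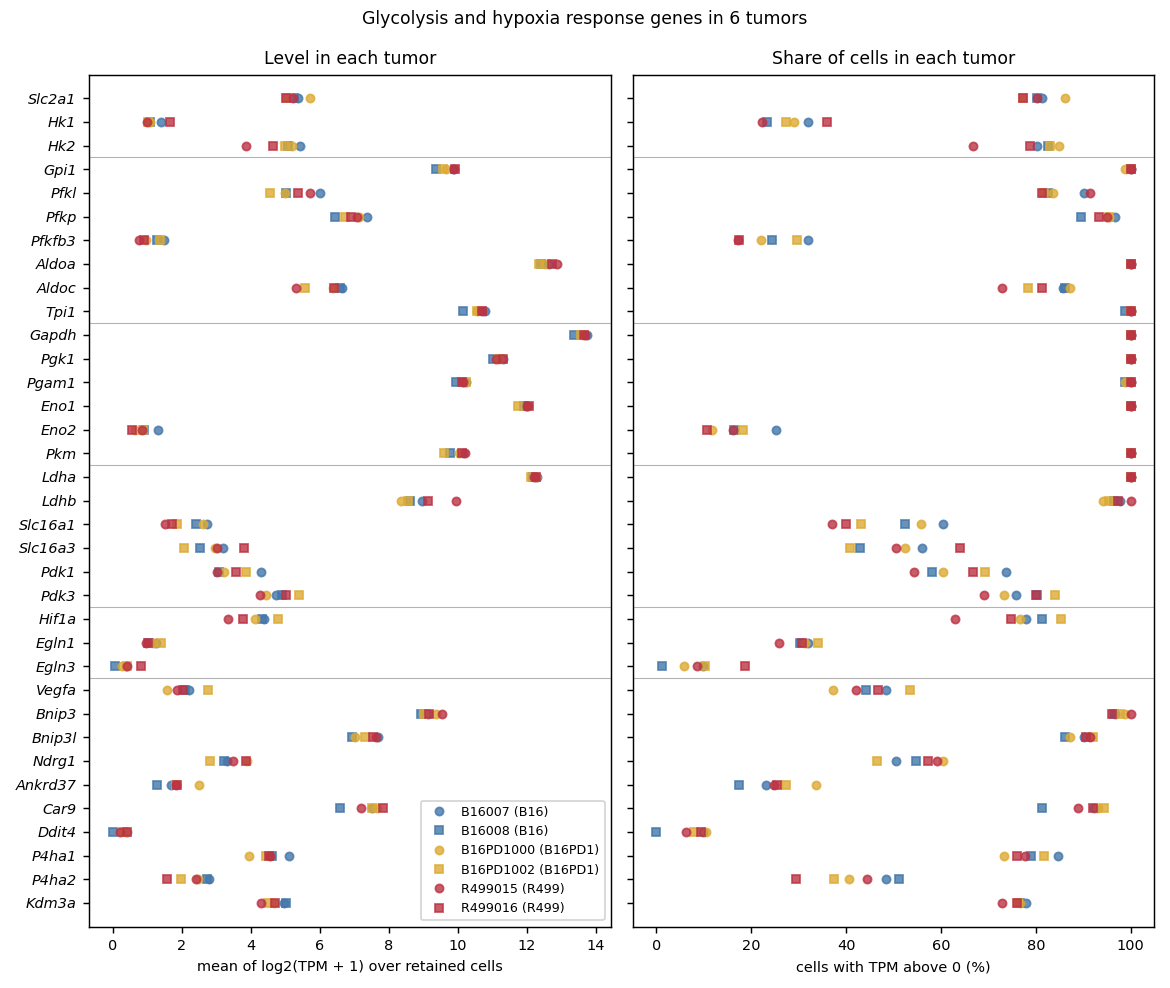
Mean of log2(TPM + 1) over the retained cells of each tumor (left) and percentage of cells with TPM above 0 (right) for the 35 genes, with 1 point per tumor, colored by condition, and lines between the groups of genes by role. Enzymes of the central pathway such as Gapdh, Aldoa, Ldha, and Eno1 sit at the right of both panels, in 100% of cells, and the 3 colors are mixed for most genes.

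Single cells of a tumor had a wider spread than the means of the tumors. A mean over 75 (R499016) to 91 (B16007) cells varies less than single cells do, so these are unlike measures. On the log2(TPM + 1) scale, the SD between cells within a tumor was 0.57 for Aldoa and 0.56 for Gapdh and Ldha, against SDs between the 6 tumor means of 0.20, 0.13, and 0.07. For Car9 these SDs were 2.87 and 0.44, and for Bnip3 2.05 and 0.22. An SD between cells includes the cells in which a gene was not detected, and it reflects sampling of the transcripts as well as the cells, which TPM does not separate.

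The variation between cells was shared by most of these genes. Pearson correlations of log2(TPM + 1) over the 507 cells were computed after the tumor mean and the linear effect of the number of genes detected had been removed within each tumor, for the 32 genes in at least 20% of cells. Eno2, Egln3, and Ddit4 were too sparse to enter. The median r over the 496 pairs was 0.138, against 0.0016 over all pairs of the 6168 genes detected as often, and 72.6% of the pairs were above the 95th percentile of all pairs, which was at r = 0.083. The cells share libraries and a common scaling to the same TPM total, so these values are a description of these cells and have no test.

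The values were higher among the genes detected in nearly every cell, most of which are abundant enzymes. Among the 11 members in at least 95% of cells (55 pairs) the median r was 0.405, against 0.021 over the pairs of all 293 genes detected that often. Whether detection or the choice of genes sets this was not tested, and Ldhb, in 96.8% of cells, had no such correlation. Positive medians were present in each tumor. Over all 496 pairs the median r was 0.145 in B16007, 0.129 in B16008, 0.173 in B16PD1000, 0.194 in B16PD1002, 0.131 in R499015, and 0.135 in R499016, and the median over all pairs of genes lay between 0.0009 and 0.0024. The 6 tumors overlapped without an order by condition between B16 and R499, and both B16PD1 values were the highest. The B16PD1 tumors also had the highest medians over all pairs of genes (0.0022 and 0.0024). Their median numbers of genes detected were the highest too (3808 and 3839). Whether these are related was not tested.

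The closest pair was Aldoa and Gapdh, with r = 0.71 over all cells and 0.61 to 0.81 within the single tumors. Pgk1 and Ldha followed at 0.63 (0.54 to 0.70 over tumors), Gapdh and Ldha at 0.62 (0.56 to 0.69), Ldha and Eno1 at 0.62 (0.46 to 0.69), and Aldoa and Pgk1 at 0.59 (0.49 to 0.71). The remaining 5 of the 10 closest pairs were Aldoa with Ldha at 0.59, Tpi1 with Ldha at 0.54, Aldoa with Bnip3 at 0.54, Gapdh with Pgk1 at 0.53, and Aldoa with Eno1 at 0.52. All but 1 of these pairs join 2 enzymes, and the other joins an enzyme to a mitophagy receptor.

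Aldoa was at the center, with a mean r of 0.32 with the other 31 genes, ahead of Gapdh (0.29), Ldha (0.29), Pgk1 (0.28), and Bnip3 (0.25). Car9 had a mean r of 0.23, with its closest correlation to Aldoa at 0.49 (0.36 to 0.69 over tumors). At the other end stood 4 genes with a mean r under 0.05. Ldhb had a mean r of -0.01, Pfkfb3 0.04, Hif1a 0.05, and Slc16a1 0.05. Pfkfb3 and Slc16a1 were sparse, at 24.1% and 48.5% of cells, but Ldhb was in 96.8% of cells and Hif1a in 76.7%, a share close to those of Kdm3a and Hk2, whose mean r was 0.12 and 0.14. Ldha and Ldhb, the subunits of the same tetrameric enzyme, had r = -0.07.

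**Figure D2:**
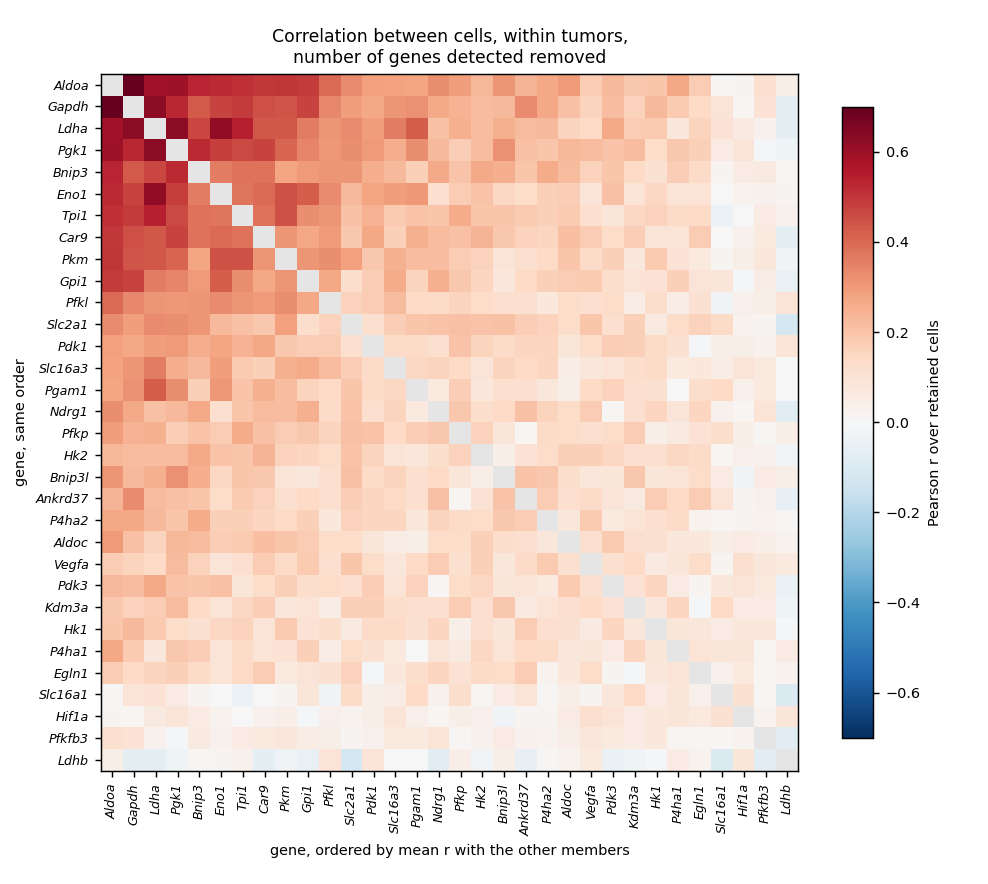
Pearson correlations between cells for the 32 genes in at least 20% of cells, after the tumor mean and the number of genes detected were removed, with genes ordered on both axes by their mean r with the others (diagonal in gray). The top left block from Aldoa to Gpi1 has the deepest red, with Aldoa and Gapdh at 0.71, and the rows of Slc16a1, Hif1a, Pfkfb3, and Ldhb at the bottom are close to white.

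The hypoxia response genes and the enzymes moved together from cell to cell. The mean of the 11 oxygen sensing and other hypoxia response genes in at least 20% of cells and the mean of the 12 enzymes of the upper and lower steps had r = 0.60, and within the tumors r was 0.52 in B16007, 0.60 in B16008, 0.71 in B16PD1000, 0.70 in B16PD1002, 0.54 in R499015, and 0.50 in R499016. Ranking cells by Car9 shows the size of the shared change. The 25% of the cells of each tumor with the highest Car9, after the number of genes detected was removed, were set against the 25% with the lowest. Of the other 31 genes, 21 (67.7%) were higher in the cells high in Car9 in 6 of 6 tumors, against 4.04% of 6167 genes, and the median difference was 0.99 on the log2(TPM + 1) scale against -0.01.

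Bnip3 differed most between these sets of cells, by 2.34 ± 0.85 (SD, n = 6 tumors), followed by Pdk1 at 2.07 ± 0.85, Pfkl at 1.98 ± 1.21, and Ndrg1 at 1.90 ± 0.77. The abundant enzymes had smaller differences that varied less between tumors. Aldoa was higher by 0.81 ± 0.15, Gapdh by 0.75 ± 0.12, Pgk1 by 0.89 ± 0.17, and Ldha by 0.69 ± 0.20. This order partly follows each gene's own spread. The SD between cells within a tumor was 2.05 for Bnip3, 2.92 for Pdk1, 2.66 for Pfkl, and 3.44 for Ndrg1, against 0.56 (Gapdh) to 0.67 (Pgk1). By r with Car9 the enzymes were higher, with Aldoa 0.49, Pgk1 0.47, Gapdh 0.45, and Ldha 0.43. Bnip3 had 0.38, Pfkl 0.30, Pdk1 0.27, and Ndrg1 0.22. Hif1a itself differed by 0.34 ± 0.91 and was higher in 5 of 6 tumors, and Slc16a1 by 0.38 ± 0.88 in 4 of 6. Ldhb differed by -0.21 ± 0.62 and was higher in 3 of 6 tumors, with values between -1.10 in B16PD1002 and 0.30 in B16007. The SD over tumors was thus larger than the mean difference for Hif1a, Slc16a1, and Ldhb.

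**Figure D3:**
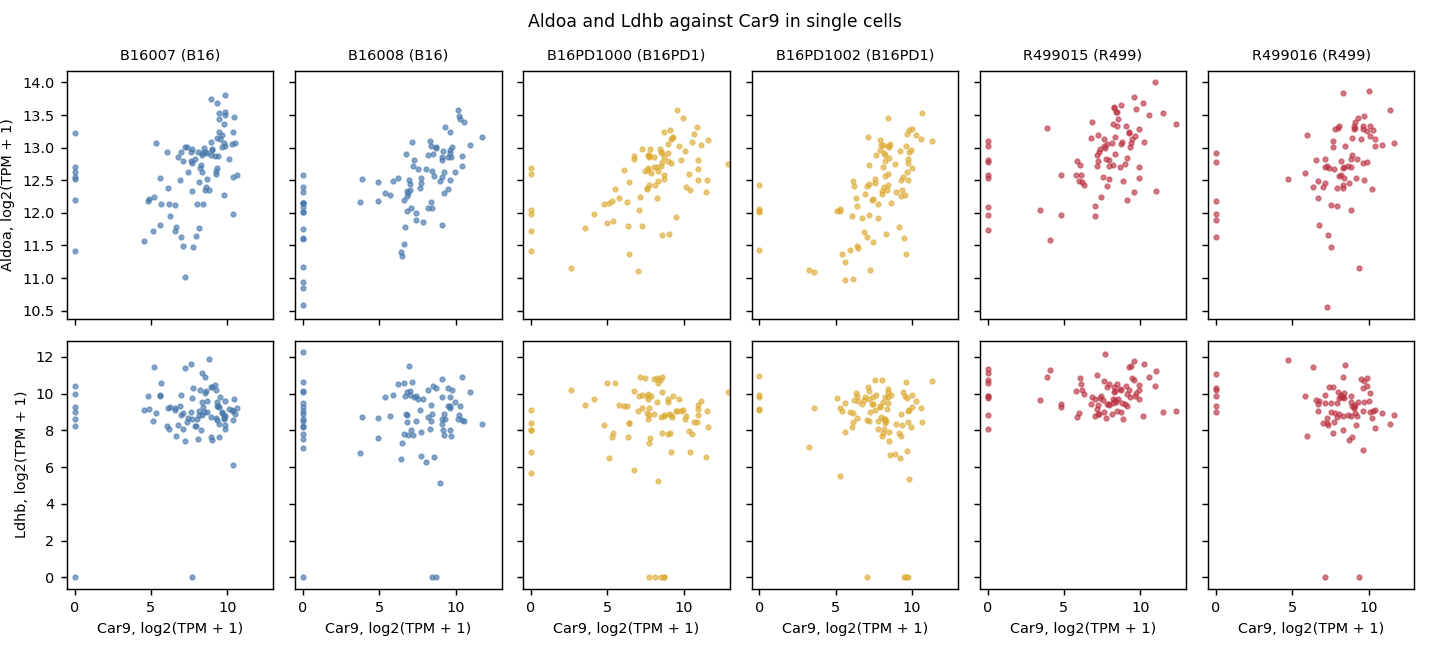
Aldoa (top) and Ldhb (bottom) against Car9 in single cells, all as log2(TPM + 1) without adjustment, with 1 panel per tumor, 1 point per retained cell, and points at 0 for cells in which a gene was not detected. Aldoa is higher in cells with more Car9 in all 6 tumors, and Ldhb has no such slope.

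Some genes outside the list followed the same pattern. Of 6136 non-members, Selenbp1, a methanethiol oxidase, had the highest r with both means, 0.51 with the hypoxia response mean (0.22 to 0.67 over tumors) and 0.54 with the enzyme mean (0.47 to 0.61). Ero1l, which forms disulfide bonds in the endoplasmic reticulum, had 0.50 and 0.43, and Bsg, the partner that brings monocarboxylate transporters to the membrane, had 0.41 and 0.43. Completing the 5 highest for the hypoxia response mean were Ier3 at 0.37 and the cytoskeletal actin gene Actg1 at 0.36, and for the enzyme mean Higd1a at 0.41 and Fam162a at 0.40, a pair of genes for mitochondrial proteins known to be induced by hypoxia.

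The promoters of these genes were read for the core of the hypoxia response element, the motif bound by the HIF complex, as background to genes that vary together. RefSeq promoter windows of 250 bases upstream of the annotated starts (GRCm38.p6) were found for 33 of the 35 genes, 46 windows in all. Bnip3l and Ndrg1 had no window. ACGTG or GCGTG, on either strand, occurred in 78.3% of the 46 windows, in 56.9% of 11207 windows of genes that passed the filter, and in 38.6% of all 32851 windows. The median GC content was 62.8%, 60.0%, and 52.4% in these sets, and the median number of CG pairs 16.5, 16, and 6. ACGTG is also part of CACGTG, the E-box core bound by other factors, which reads the same on both strands and was in 10.9%, 8.49%, and 6.02% of the windows. Of the 10 genes with the highest mean r, 6 had a match in the window nearest to the GENCODE start, as had 18 of the other 20 with a window and a mean r, so matches did not follow the order of the correlations.

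6 stretches are shown because they belong to the genes at both ends of that order, which were picked after their values were seen. Capitals mark ACGTG and GCGTG on either strand, the sequence is written 5′ to 3′ on the strand of the gene and ends at or before the RefSeq start, and any annotated exon bases at its end were left out. Pgk1, at chrX:106186850-106187099 on the plus strand, has 2 matches to ACGTG, 1 on each strand.
Pgk1: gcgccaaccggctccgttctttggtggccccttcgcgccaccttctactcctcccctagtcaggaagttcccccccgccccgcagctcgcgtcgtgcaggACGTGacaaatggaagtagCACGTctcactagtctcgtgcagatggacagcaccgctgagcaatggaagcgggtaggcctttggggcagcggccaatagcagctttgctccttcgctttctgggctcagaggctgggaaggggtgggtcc
Ldha, at chr7:46845554-46845803 on the plus strand, lies 4329 bases inside the GENCODE gene, which has a start further upstream, and has 2 copies of CACGTG, each counted on both strands, and 1 more ACGTG.
Ldha: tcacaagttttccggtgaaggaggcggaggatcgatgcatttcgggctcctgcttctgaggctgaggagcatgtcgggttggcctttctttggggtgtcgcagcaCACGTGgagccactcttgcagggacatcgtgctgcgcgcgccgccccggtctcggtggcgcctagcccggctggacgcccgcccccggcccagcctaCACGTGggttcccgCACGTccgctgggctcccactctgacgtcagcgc
Bnip3, at chr7:138909520-138909756 on the minus strand, has 1 CACGTG and 3 copies of GCGTG.
Bnip3: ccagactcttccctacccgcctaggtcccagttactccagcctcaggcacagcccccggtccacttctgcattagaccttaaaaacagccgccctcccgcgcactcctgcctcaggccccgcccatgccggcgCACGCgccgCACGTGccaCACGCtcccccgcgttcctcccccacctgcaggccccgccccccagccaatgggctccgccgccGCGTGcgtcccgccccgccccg
Gapdh, at chr6:125165774-125166023 on the minus strand, has 2 copies of GCGTG and no ACGTG.
Gapdh: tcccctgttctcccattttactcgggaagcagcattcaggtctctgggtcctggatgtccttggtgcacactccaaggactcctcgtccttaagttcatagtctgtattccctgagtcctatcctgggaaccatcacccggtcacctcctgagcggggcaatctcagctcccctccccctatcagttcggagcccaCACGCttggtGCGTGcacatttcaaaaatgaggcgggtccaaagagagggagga
Aldoa, the center of the correlations, has 1 ACGTG in this window at chr7:126799255-126799504 on the minus strand, and none in its window nearest to the GENCODE start.
Aldoa: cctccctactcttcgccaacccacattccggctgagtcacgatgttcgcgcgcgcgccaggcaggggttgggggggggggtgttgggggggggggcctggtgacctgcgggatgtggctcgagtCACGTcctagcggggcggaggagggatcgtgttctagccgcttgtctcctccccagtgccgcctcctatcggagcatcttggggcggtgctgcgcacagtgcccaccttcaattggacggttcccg
Ldhb, the gene with the lowest mean r, has 1 GCGTG at chr6:142507958-142508207 on the minus strand.
Ldhb: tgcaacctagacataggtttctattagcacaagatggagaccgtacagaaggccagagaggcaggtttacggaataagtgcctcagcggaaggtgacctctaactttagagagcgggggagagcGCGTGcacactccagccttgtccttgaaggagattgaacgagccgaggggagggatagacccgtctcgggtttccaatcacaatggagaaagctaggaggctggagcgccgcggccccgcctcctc
A match states only that these letters are present.

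The comparison of the conditions asked whether the genes differed after anti-PD1 and in the resistant line. No gene of the list passed an adjusted p of 0.05 in any contrast (limma on the 6 tumor means of log2(TPM + 1), adjusted over 11264 genes, 0 of 35 in each). Over all genes 0% passed between B16PD1 and B16, 0.0621% between R499 and B16, and 0.071% between R499 and B16PD1. Without a trend, limma called 0 of all 11264 genes in each contrast, and hence 0 of the 35. With 2 tumors per condition the median 95% confidence interval of a member reached 0.67 on each side of its difference. This width differs from gene to gene and says nothing of the adjusted threshold, at which even the widest difference of a member, 1.08 for Ldhb, was not called. The contrasts share tumors and are not independent of each other.

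Between B16PD1 and B16, 1 of the 35 genes (2.86%) had an unadjusted p under 0.05, against 4.69% of all genes. Without a trend 2 had one, and the share of all genes was not computed under that setting. The median difference over the 35 genes was -0.05 on the log2(TPM + 1) scale, against 0.01 over all genes, with 16 higher and 19 lower. This median changed sign when a single tumor was left out, from -0.22 without B16008 to 0.08 without B16007. Ankrd37 had mean log2(TPM + 1) values of 1.67 and 1.28 in B16 and 2.48 and 1.83 in B16PD1, a difference of 0.68 ± 0.32 (SE, n = 2 tumors per condition, limma unadjusted p = 0.046, adjusted p = 0.989). For Ankrd37 the difference was 0.35 without B16PD1000. Its annotated exons share 57 bases with Ufsp2 on the opposite strand, and the sources used here do not state a use of strand.

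The next 4 genes by p in this contrast were all lower in B16PD1, with adjusted p = 0.989 each in limma. Pfkl stood at 6.01 and 5.02 in B16 and 4.98 and 4.55 in B16PD1 (difference -0.75 ± 0.38, SE). P4ha1 stood at 5.11 and 4.6 against 3.94 and 4.43 (-0.67 ± 0.34). The gap between the 2 B16 tumors alone was 0.99 for Pfkl. Aldoc stood at 6.65 and 6.58 against 6.39 and 5.57 (-0.64 ± 0.39), and Eno2 at 1.29 and 0.90 against 0.63 and 0.87 (-0.35 ± 0.22).

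Between R499 and B16, 7 of the 35 genes (20%) had an unadjusted p under 0.05, against 10.5% of all genes, of which 2 were higher and 5 lower in R499. The count was 5 without a trend, and when single tumors were left out it fell most without R499015. The share of all genes was not computed under these settings. The median difference was 0.05 over the 35 genes and -0.07 over all genes, with 21 of the 35 higher. Without B16008 the median of the 35 was -0.11 and without B16007 it was 0.21. The 5 genes with the lowest p belong to glucose phosphorylation (Hk2), lactate handling (Slc16a1, Ldhb), and oxygen sensing (Egln3, Hif1a).

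Slc16a1, which carries lactate and pyruvate across the membrane, had values of 2.73 and 2.41 in B16, 2.62 and 1.84 in B16PD1, against 1.5 and 1.71 in R499. R499 was lower than B16 by a difference of -0.96 ± 0.33 (SE, n = 2 per condition, limma unadjusted p = 0.0099, adjusted p = 0.360), and both R499 tumors lay below the other 4. With the number of genes detected as a covariate it was -0.58. Hk2 had values of 5.41 and 5.09 in B16, 5.20 and 4.99 in B16PD1, against 3.86 and 4.64 in R499. The difference of R499 from B16 was -1.0 ± 0.36 (limma unadjusted p = 0.012, adjusted p = 0.370). R499015 was the lower of the R499 tumors, and Hk2 was in 66.7% of its cells, against 78.7% in R499016 and 80.2 to 84.9% in the other 4 tumors. R499015 also had the lowest median number of genes detected, 3141. By the mean number, which is the covariate used, both R499 tumors were the lowest. They had 3332 (R499015) and 3456 (R499016), against 3496 (B16008) to 3787 (B16PD1000) elsewhere, so the covariate partly follows the condition. With the mean number of genes in a cell as a covariate the difference was -0.48 (adjusted p = 0.897), and without R499015 it was -0.61 (adjusted p = 0.812), within a range of 0.293 to 0.897 in adjusted p over the alternatives.

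Egln3, the prolyl hydroxylase that is itself induced by HIF, had values of 0.38 and 0.06 in B16, 0.26 and 0.41 in B16PD1, against 0.42 and 0.82 in R499 (R499 minus B16 0.40 ± 0.15, limma unadjusted p = 0.016, adjusted p = 0.380). It was detected in 9 and 1 cells of the B16 tumors and in 7 and 14 cells of the R499 tumors, so the difference rests on few cells, and it was 0.24 without B16008, 0.59 without R499015, and 0.20 without R499016. Hif1a had values of 4.39 and 4.31 in B16, 4.13 and 4.78 in B16PD1, against 3.35 and 3.77 in R499. R499 was lower by a difference of -0.79 ± 0.35 than B16 (limma unadjusted p = 0.038, adjusted p = 0.445), and both R499 tumors lay below the other 4 on this scale. They did not by mean TPM, where R499015 at 54.4 TPM was above B16008 at 51.7 TPM, and the difference on the log2 of the tumor mean TPM was -0.18 (adjusted p = 0.890, over alternatives 0.372 to 0.890). In cells with over 2000 genes detected the Hif1a difference from B16 was -0.40 (limma adjusted p = 0.757). With the covariate for genes detected it was -0.66. The HIF alpha protein is controlled mainly through its stability, which RNA does not show. P4ha2 and Pfkfb3 were the other genes under 0.05, with differences of -0.76 ± 0.34 (adjusted p = 0.447) and -0.55 ± 0.25 (adjusted p = 0.456) in limma.

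Ldhb was the gene with the lowest p between R499 and B16PD1. Its level was 8.95 and 8.62 in B16, 8.35 and 8.56 in B16PD1, against 9.94 and 9.13 in R499. R499 was above B16PD1 by 1.08 ± 0.29 (SE, n = 2 per condition, limma unadjusted p = 0.0020, adjusted p = 0.279) and above B16 by 0.75 ± 0.29 (unadjusted p = 0.021, adjusted p = 0.383). Both R499 tumors lay above the other 4, and mean TPM was 1174 and 812 in R499 against 599 to 721 elsewhere. Without R499015 the differences of Ldhb were 0.67 from B16PD1 and 0.34 from B16, and without R499016 the difference from B16 was 1.16. Of the alternatives tried, the lowest adjusted p for Ldhb against B16PD1 was 0.098 and the highest 0.906.

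In that contrast, R499 against B16PD1, 5 of the 35 genes (14.3%) had an unadjusted p under 0.05, against 10.2% of all genes, with 3 higher and 2 lower in R499. The count was 3 without a trend, and when single tumors were left out it fell most without R499015. The share of all genes was not computed under these settings. The median difference was 0.02 over the 35 genes and -0.09 over all genes, and it was -0.01 without B16PD1002. Besides Ldhb the 5 were Hif1a (-0.89 ± 0.35, adjusted p = 0.407), Hk2 (-0.85 ± 0.36, adjusted p = 0.448), Slc16a3 (0.89 ± 0.39, adjusted p = 0.462), and Aldoa (0.36 ± 0.16, adjusted p = 0.470), all from limma. The Hk2 difference was -0.02 with the covariate for genes detected and -0.46 without R499015, the Hif1a difference -0.57 without B16PD1002, and the Slc16a3 difference 0.44 without B16PD1002, 0.49 without R499016, and 2.23 with the covariate. Slc16a3 had values of 3.20 and 2.53 in B16, 2.96 and 2.07 in B16PD1, against 3.01 and 3.80 in R499, and Aldoa 12.64 and 12.42, 12.54 and 12.35, and 12.88 and 12.72. For both genes the R499 values were above the B16PD1 values, but for Slc16a3 they overlapped those of B16.

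**Figure D4:**
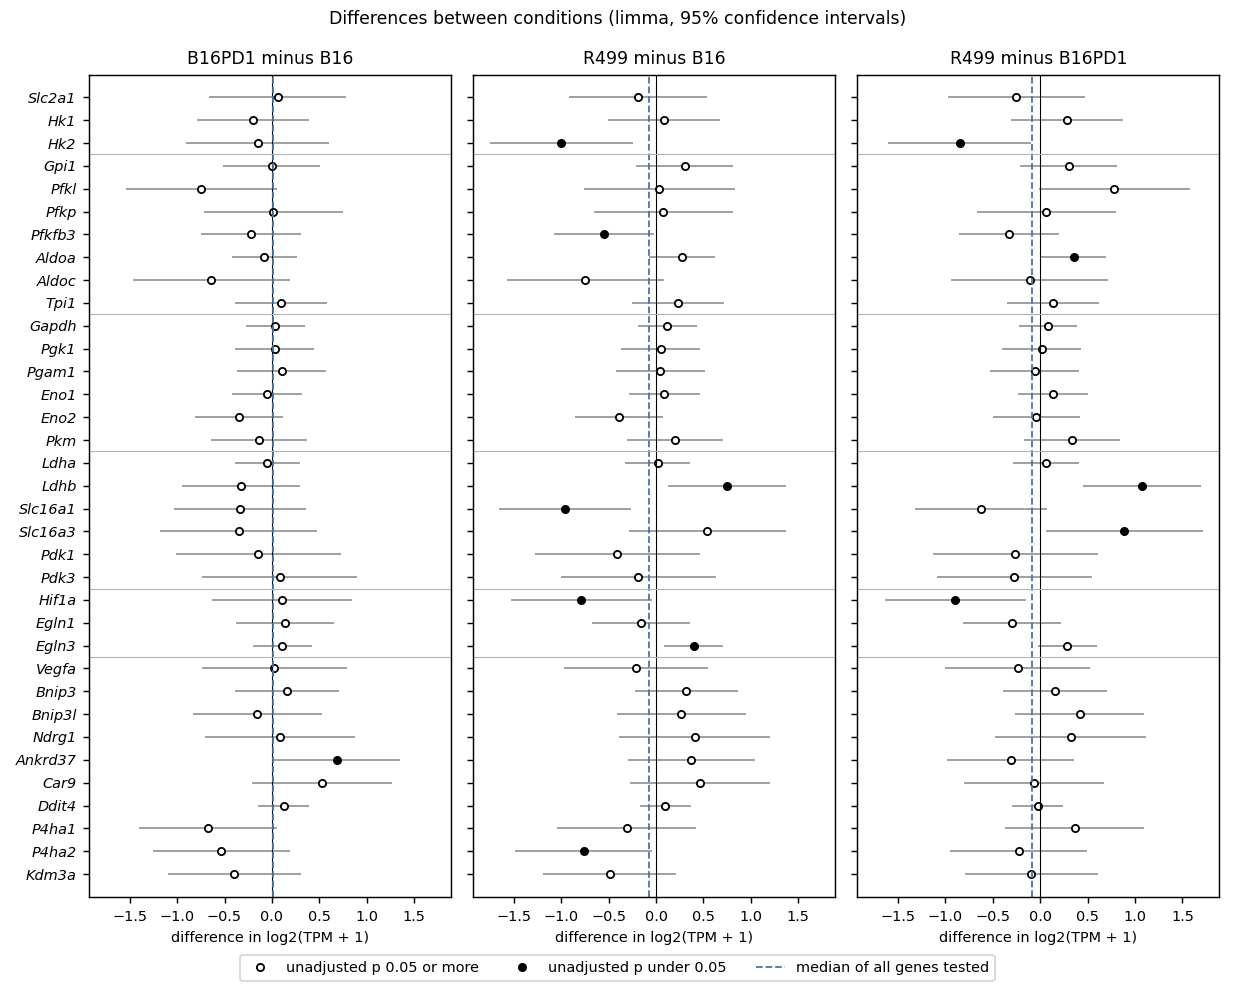
Differences between conditions in mean log2(TPM + 1) for the 35 genes, with 95% confidence intervals from limma, filled points for an unadjusted p under 0.05, and a dashed line at the median of all genes tested. Filled points number 1, 7, and 5 in the 3 panels, and no gene passed an adjusted p of 0.05.

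By role, the 6 enzymes of the lower steps had the narrowest range between R499 and B16, from -0.39 for Eno2 to 0.20 for Pkm, with a median of 0.07, and the 7 genes of the upper steps ranged from -0.75 for Aldoc to 0.30 for Gpi1. Of the 10 other hypoxia response genes, 6 were higher and 4 lower in R499 than in B16, from -0.76 to 0.46, the upper end being Car9. The 3 genes with the widest gap between the 2 tumors of a condition were Pdk1, at 4.30 and 3.08 in B16, Vegfa, at 1.58 and 2.76 in B16PD1, and Ndrg1, at 3.90 and 2.80 in B16PD1. The higher tumor was B16007 for Pdk1 and B16PD1002 for Vegfa, the tumors with the higher summed immune markers, whereas for Ndrg1 it was B16PD1000, which had the lower immune sum of the B16PD1 tumors. The part of immune cells in these gaps was not tested. The gap in each of these exceeded every difference between conditions that the 35 genes had.

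The balance of paired genes was compared as the share of the first gene in the summed mean TPM of the pair, as a description with no test, since 2 tumors against 2 cannot give a two-sided exact permutation p below 0.333. Ldha held 88.1% and 88.1% of the lactate dehydrogenase pair in B16, 89.7% and 88.7% in B16PD1, against 81.1% and 86.6% in R499, where both values were the lowest. Slc16a3 held 76.8% and 69.9% of its pair with Slc16a1 in B16, 67.4% and 62.1% in B16PD1, against 85.9% and 85.0% in R499, where both were the highest. Relative to the paired gene, the R499 tumors thus had more Ldhb and more of the exporter Slc16a3 than the other tumors. By mean TPM, Slc16a3 itself overlapped, at 49.8 and 64.7 TPM in R499 against 22.6 to 58.3 TPM elsewhere. Slc16a1 was lower in R499, at 8.15 and 11.4 TPM against 13.8 to 20.9 TPM elsewhere. Egln1 held 72.2% and 91.0% of its pair with Egln3 in B16, 81.1% and 78.2% in B16PD1, against 55.3% and 49.4% in R499. Both genes of that pair were low, and Egln3 was in 8.88% of cells.

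Among the remaining pairs, Aldoa held 95.2 to 97.7% of its pair with Aldoc and Eno1 99.4 to 99.9% of its pair with Eno2 in the 6 tumors. Hk2 held 93.8% and 93.2% of its pair with Hk1 in B16, 95.7% and 95.6% in B16PD1, against 92.5% and 80.6% in R499, so the conditions did not overlap and both R499 values were the lowest. Pfkp held 58.5 to 74.2%, Pdk3 57.4 to 70.6% of its pair with Pdk1, and Bnip3 64.5 to 69.9% of its pair with Bnip3l. P4ha1 held 33.2 to 75.7% of its pair with P4ha2, the lowest being B16PD1000. There P4ha2 had a mean of 87.5 TPM, but its mean log2(TPM + 1) of 2.46 was below those of both B16 tumors (2.78 and 2.74). A share of mean TPM can rest on few cells. The highest value in a cell was 3193 TPM for P4ha2 and 797 TPM for Hk1, whose mean in R499016 was 29.8 TPM.

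**Figure D5:**
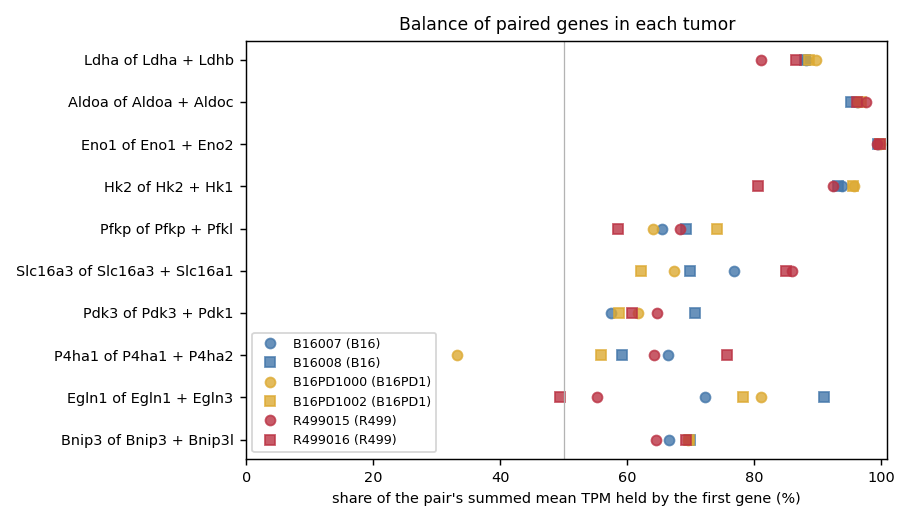
Share of a pair's summed mean TPM held by the first gene, in percent, with 1 point per tumor colored by condition and a gray line at 50%. The R499 points are the lowest for Ldha of Ldha and Ldhb (81.1% and 86.6%) and the highest for Slc16a3 of Slc16a3 and Slc16a1 (85.9% and 85.0%).

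Other genes of the same pathways, from lists of 31 glycolysis and 43 hypoxia symbols, also had no gene past the threshold. Of the 21 glycolysis genes tested, 2 were higher in B16PD1 than in B16 at an unadjusted p under 0.05 (9.52%, against 4.69% of all genes), 0 passed it between R499 and B16 (against 10.5%), and 2 were lower in R499 than in B16PD1 (9.52%, against 10.2%). The first 2 were the muscle enolase Eno3, at 2.16 and 1.64 in B16 and 3.34 and 2.52 in B16PD1, and Pdhb, a subunit of pyruvate dehydrogenase, at 4.61 and 4.77 against 5.64 and 5.44. Their adjusted p was 0.989 in limma. The 2 lower in R499 were the glucose transporter Slc2a6 (-0.35 ± 0.13, adjusted p = 0.377) and G6pdx, which opens the pentose phosphate pathway (-0.79 ± 0.35, adjusted p = 0.465), and the lowest p between R499 and B16 belonged to Pdhb and to Mpc1, a subunit of the mitochondrial pyruvate carrier, with adjusted p = 0.504 and 0.565.

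Of the 36 other hypoxia genes tested, 0 had an unadjusted p under 0.05 between B16PD1 and B16 (against 4.69% of all genes), 3 were lower in R499 than in B16 (8.33%, against 10.5%), and 2 were higher and 2 lower in R499 than in B16PD1 (11.1%, against 10.2%). The shares in the contrasts with R499 are near those of all genes. Heme oxygenase Hmox1 stood at 5.22 and 5.82 in B16, 5.15 and 5.15 in B16PD1, against 4.49 and 4.20 in R499, a difference from B16 of -1.18 ± 0.34 (limma adjusted p = 0.286). Arnt, the partner of the HIF alpha subunits, stood at 3.02 and 3.0 in B16, 2.77 and 2.02 in B16PD1, against 1.95 and 2.09 in R499, a difference of -0.99 ± 0.33 (adjusted p = 0.349). R499 was below B16 in both tumors for Hmox1 and for Arnt. Against B16PD1, the secreted hormone Stc1 was lower by a difference of -0.61 ± 0.22 (adjusted p = 0.362) and adrenomedullin, Adm, higher by 0.75 ± 0.29 (adjusted p = 0.405) in R499, and Adm was lower in B16PD1 than in B16 by a difference of -0.55 ± 0.29 (adjusted p = 0.989).

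Several members have near-identical copies between which RSEM may split reads, so their levels are uncertain to that extent. Pgk1-rs7 was listed in 87.2% of cells at 446 TPM, Gapdh-ps15 in 88.8% at 183 TPM, Eno1b in 89.5% at 170 TPM, Pgam1-ps2 in 53.3% at 189 TPM, and Bnip3l-ps in 34.3% at 35.1 TPM. Ldha-ps2 was in 7.69%, Gapdh-ps14 and Aldoart1 in 4.73% each, and Pgam1-ps1, Ldha-ps, and Aldoa-ps4 in under 1%. Pgk1-ps3 and Aldoa-ps3 were listed at 0. Annotated exons of Pfkp share 748 bases with Pitrm1 (79.1% of cells) and those of Tpi1 share 34 bases with Spsb2 (19.9% of cells), both on the opposite strand.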

How the data were processed

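Reads were aligned by the authors with STAR (2-pass) and quantified with RSEM, and the deposited TPM values cover 25215 genes in 602 unfiltered cells. The submitters' processing notes name mm10, and tool versions are not given in the sources used here. Expression columns named tumors of a condition but matched no single sample, so tumors are unnumbered replicates of their condition.

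Retained were the 507 cells with over 1000 detected genes and under 10% mitochondrial TPM, and the 11264 genes in more than 5 of them. No limit on mapped reads could be set, since TPM holds no counts, and doublets were not called. Tumor values are means of log2(TPM + 1) over cells. The pseudocount of 1 understates changes of low genes. The 3 contrasts were fitted to the 6 tumors with limma 3.58.1 (R 4.3.3, eBayes with trend, two-sided, Benjamini-Hochberg adjustment over all genes, threshold 0.05). Correlations used residuals after removal of the tumor mean and the linear effect of genes detected, within each tumor. Other steps ran in Python 3.11.15 (pandas 2.3.3, numpy 2.4.6, scipy 1.17.1), with figures by matplotlib 3.10.9. Intervals of shares are Wilson 95% intervals and cover counting error only. For a gene at 0 in all cells, the share allowed is instead 3 cells divided by the number of cells. Positions are from GENCODE M21 (GRCm38), and promoters from RefSeq (GRCm38.p6). The limma fit and the correlation of residuals were run on simulated data with normal noise, which lacks the undetected values of TPM. Other steps had no such run.

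The genes and lists were chosen with earlier results of these data known. All 35 genes are named by level. Statistics are given for genes past the threshold or with the 5 lowest p in a contrast, tumor values for these, the 5 most abundant, and the 3 with the widest gap within a condition. The 10 closest pairs, the 5 non-members closest to each mean, the 2 lowest p of each other list, and copies are named. Other genes under an unadjusted p of 0.05 were named after their values were seen. Alternatives were other pseudocounts, filters on cells and genes, centering, a covariate, limma without trend, and leaving out each tumor. Sequences of proteins were not analysed here.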

Additional observations from a re-analysis of the deposited data

How the results depend on the processing

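No paired analysis was possible because the tumor numbers in the expression columns match no replicate number in the labels, and the labels name nothing else that mice of different conditions share. Each of the 17 alternatives gave 0 called members in each contrast (51 counts), with a lowest adjusted p of 0.098 in limma, and the 254 values of named genes kept their direction. Of the 51 medians over members, 47 moved by less than the spread between tumors (0.16). Some alternatives cannot change a gene's difference: filters on genes, limma without trend, and leaving out a tumor of the condition outside the contrast. Under these, directions were kept by construction, and a median could move only where a filter dropped members. The named genes were those with the lowest p in each contrast. Both counts therefore include cases that test nothing, and the 254 values say nothing of the other members. With a covariate for genes detected, the median was 0.38 for R499 minus B16 and 0.50 for R499 minus B16PD1, while the median of all genes went from -0.07 to -0.01 and from -0.09 to 0.01, and the cause was not tested. Both R499 tumors had the lowest mean number of genes detected, so this covariate partly follows the condition. Leaving out each tumor gave medians of -0.22 to 0.078 (B16PD1 minus B16), -0.11 to 0.21 (R499 minus B16), and -0.01 to 0.11 (R499 minus B16PD1). Across alternatives, the number of all genes called ran from 0 to 2, 0 to 28 (7 in the report), and 0 to 22 (8 in the report) in these contrasts. The median correlation over member pairs was 0.190 without removing the number of genes detected, 0.180 for members in at least 50% of cells, 0.167 in cells with over 2000 genes, and 0.405 for members in at least 95% of cells, and 0.137 to 0.148 when each tumor was left out. The share of cells in which the median member was detected was 79.5%, and 84.6% in cells with over 2000 genes. The limit to members in at least 95% of cells and the other limits on cells for the share were chosen after seeing the data. TPM gives no read depth, so a gene that was not detected may have been missed.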

Other observations

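The genes that ran opposite to the hypoxia response and enzyme means between cells were named after their values were seen. Lowest with the hypoxia response mean were the peroxiredoxin Prdx1 (r = -0.33, and -0.46 to -0.18 over the 6 tumors), the histone variant H2afz (-0.23), the mitochondrial dicarboxylate carrier Slc25a10 (-0.23), the cell cycle kinase subunit Cks1b (-0.22), and the prolyl isomerase Ppia (-0.22). Prdx1 and H2afz had r below 0 in all 6 tumors, whereas Cks1b was at 0.01 in B16PD1000 and Ppia at 0.05 in B16007. Lowest with the enzyme mean were the endoplasmic reticulum chaperone gene Dnajc3 (-0.26), H2afz (-0.25), Chchd4, which serves mitochondrial protein import (-0.23), and the chromatin genes Atad2 (-0.23) and Asf1b (-0.21), each below 0 in all 6 tumors. These values describe the same cells, with a shared TPM total, and have no test.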
